A study of Mus musculus with 6 samples.

Results

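In mouse embryonic stem (ES) cells, 918 windows of 1 kb combined a local maximum of the histone variant H2A.B with almost no reads of 5-methylcytosine (5mC). They were 918 of 2123366 windows on chromosomes 1 to 19 that held an H2A.B read (0.0432%), and 918 of the 7281 local maxima of H2A.B. The members were chosen by their measured reads: at least 10 distinct H2A.B reads and at least 4 times the mean per kb of the surrounding 100 kb window, 0 reads in both IgG controls, and a sum of 0 or 1 reads over the 3 5mC libraries. The H2A.B part of this rule alone was met by 7281 windows (0.343%). Because these values made the choice, the high H2A.B level and the low 5mC and IgG levels inside the members are descriptions and support nothing.

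All libraries came from 1 kind of cell, C57Bl/6 ES cells grown with leukaemia inhibitory factor and no feeder layer, with no genetic change and no other treatment named in the labels. H2A.B chromatin was recovered with a home-made rabbit antibody (1 library) and compared with rabbit IgG (1 library). Denatured DNA was recovered with the mouse monoclonal antibody 33D3 against 5mC, a method called MeDIP (3 libraries), and compared with mouse IgG (1 library). The labels of both IgG libraries conflict: their title and antibody entry say IgG, which was followed, but their description gives the antibody to H2A.B. Whether the 3 5mC libraries stand for different cultures is not given in the labels, and their spread may be technical. The H2A.B antibody and the IgG controls had no replicate, so no value of theirs has a replicate check.

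H2A.B, also named H2A.Bbd, is a short variant of histone H2A. It lacks most of the C-terminal tail and the acidic patch of H2A, its nucleosomes hold less DNA and are less stable, and it has been linked to active, open chromatin, above all in the male germ line. 5mC in mammals lies mostly on cytosines followed by guanine, is spread over most of the genome, and is missing from most CpG islands, the CpG-dense stretches at many promoters. MeDIP recovers a fragment in proportion to the methylated cytosines it holds, so DNA with few CpG sites gives few reads even when those sites are methylated. Positions are 1-based in build mm9. Sequence and gene annotation of that build were not used here, so the members are given by position alone.

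On chromosomes 1 to 19 the H2A.B library held 7690224 distinct reads and IgG ChIP 520319. The 5mC libraries held 774788 to 1839684, and IgG MeDIP 121384. H2A.B and 5mC replicate 1 were read as 42 bp in lane 3 of 1 flow cell. 5mC replicate 2 shared lane 1 of a second flow cell with IgG MeDIP, and 5mC replicate 3 shared lane 2 of it with IgG ChIP, all with reads of 50 bp. Antibody and flow cell can therefore not be told apart where H2A.B is set beside IgG ChIP. The intervals below are exact 95% Poisson or binomial intervals, which cover counting error only, and over windows they treat windows as independent.

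The tallest members held 37 to 50 H2A.B reads. The first, chr3:68550001-68551000, had 50 H2A.B reads, no read of IgG ChIP or IgG MeDIP, and 1, 0 and 0 reads of 5mC replicates 1, 2 and 3. Its 100 kb window averaged 4.13 H2A.B reads per kb, and 94% of its reads began within 300 bp. It was a narrow summit, since the windows on either side held 5 H2A.B reads each. The 50 distinct reads stood for 74 deposited reads, and 35 of the 50 were on the plus strand and 15 on the minus strand. Their median minus-strand start lay only 4 bp to the right of the median plus-strand start.

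The second, chr9:70836001-70837000, had 48 H2A.B reads, no IgG read and 1, 0 and 0 reads of the 5mC replicates. This member was not an isolated summit: the window to its left held 40 H2A.B reads and the one to its right 4. The third, chr3:3032001-3033000, had 43 H2A.B reads and no read of any other library. It lay near the start of the assembled chromosome 3, in the 100 kb window with the highest H2A.B mean of all members (8.2 reads per kb), so its ratio was only 5.24.

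The next 4 members repeated the pattern of 1 5mC read and no IgG read. H2A.B stood at 41 reads in chr19:25546001-25547000, at 40 in chr1:192580001-192581000, at 39 in chr12:71784001-71785000 and at 39 in chr6:127418001-127419000. The 5mC read was from replicate 1 in the first 3 and from replicate 3 in the last. In the chr1 member the windows on both sides held 6 and 9 5mC reads (3 libraries summed) and 3 and 2 H2A.B reads. Next to the chr12 member they held 1 and 1 5mC reads, and the rule itself keeps 5mC low inside a member.

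Of the 10 tallest, 3 had no 5mC read at all. These were the chr3:3032001-3033000 member, chr13:49893001-49894000 with 38 H2A.B reads and chr7:16218001-16219000 with 37. The tenth, chr6:49539001-49540000, had 37 H2A.B reads and 1 read of 5mC replicate 1, and the window to its right held 25 H2A.B reads.

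Measured against the 100 kb mean, the highest ratio was 23.4, in chr19:6889001-6890000. That value rested on 15 H2A.B reads over a mean of 0.64 reads per kb, the lowest of all members. The 4 that followed had more reads: chr16:66575001-66576000 had 34 and a ratio of 14.3, chr15:9667001-9668000 had 33 and 12.7, chr3:64218001-64219000 had 27 and 12.6, and chr16:60948001-60949000 had 31 and 12.5. The last of these was the shoulder of a taller peak, with 69 H2A.B reads in the window to its left. In all, 42 of the 918 members had a next window with at least as many H2A.B reads as their own.

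Most members were far smaller. The median member held 12 H2A.B reads (quartiles 10 and 15) and stood at 4.78 times its local mean (quartiles 4.31 and 5.69). Only 93 members held 20 or more H2A.B reads and 22 held 30 or more. Windows just outside the H2A.B thresholds outnumbered those just inside: 243 members held exactly 10 H2A.B reads, and 382 further windows held 9 and met the rest of the rule. Likewise 347 members had a ratio from 4 to under 4.5, against 575 further windows from 3.5 to under 4. By 5mC reads, 363 members had none and 555 had 1, against 496 maxima with 2.

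**Figure D1:**
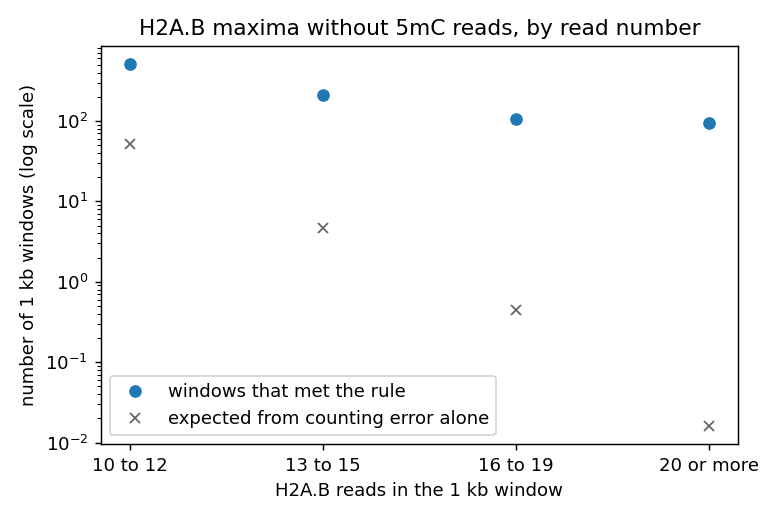
Number of member windows by H2A.B reads (circles), beside the number that Poisson counting error around the mean of each 100 kb window would give by itself (crosses), both on a log scale. The circles fall from 510 windows at 10 to 12 reads to 93 at 20 or more, and the crosses from 51.6 to 0.0160.

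If every window without IgG reads and with 0 or 1 5mC reads were drawn at the mean of its 100 kb window, counting error alone would place 56.7 windows past the H2A.B thresholds. Of these, 51.6 would have 10 to 12 reads, where 510 members lay, 4.64 would have 13 to 15 (210 members), and 0.449 would have 16 to 19 (105 members). This assumes an even level within each 100 kb, which differences in mappability break, so it is a guide to precision and no test. The H2A.B reads and 100 kb means behind it are those that chose the members.

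The reads within members were more gathered than in other windows of the same size. The rule did not use where reads lay within a window. Its ratio to the local mean did set members apart from the comparison windows, so the contrast is not independent of the rule. The comparison windows held 10 or more H2A.B reads but stood under 2 times their local mean, with the same limits on IgG and 5mC (3200 windows). At 10 to 12 reads, the densest 300 bp held a median of 63.6% of a member's reads (quartiles 54.5% and 75%), against 58.3% (50% and 63.6%) in the comparison windows. At 13 to 15 reads the medians were 66.7% and 53.8%. The ranges between quartiles overlapped in both classes (53.9% to 78.6% and 46.2% to 61.5% in the second). The comparison windows lay in denser regions, with a median local mean of 6.08 H2A.B reads per kb against 2.48. Gathered reads were not particular to members. At 10 to 12 reads the median was 63.6% in maxima with more 5mC reads and no IgG read, and 70% in maxima with IgG reads. At 13 to 15 reads these were 69.2% and 73.3%.

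In ChIP, reads of the plus strand begin on the left of a bound fragment and reads of the minus strand on its right. The median minus-strand start lay 42.5 bp to the right of the median plus-strand start (95% interval of the median 34 to 49.5, 911 members with reads on both strands). The shift was positive in 570 of the 911 (62.6%, 59.3% to 65.7%). It varied widely from member to member, with quartiles of -70 and 131.5 bp. In 115 of 918 members (12.5%) at least 80% of the H2A.B reads lay on 1 strand, so few or no reads of the other strand could place the shift. In members with at least 3 reads on each strand the median shift was 43.75 bp. The comparison windows had a median shift of 16.5 bp (4 to 25) and 52.3% positive (50.6% to 54.1%). They were set apart from members by the ratio of the rule and lay in denser regions, so this contrast too is not independent of the rule. Maxima that held IgG reads also had the shift, with a median of 48 bp (44.5 to 52) and 71.4% positive (69.9% to 72.8%). With 20 or more reads, 67 of 93 members had a positive shift (72.0%, 61.8% to 80.9%) and the median was 45.5 bp, close to the read length of 42 bp.

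Maxima that carried 2 or more 5mC reads and no IgG read (2489 windows) had a median shift of 56 bp (50.5 to 62) and 68.2% positive. They also held more H2A.B reads, with a median of 15 against 12. At 10 to 12 reads their shift was 55.5 bp (45 to 68.5) against 41 bp (25 to 58.5) in members. These intervals overlapped, as they did at 13 to 15, 16 to 19 and 20 or more reads, but the median was lower in members in all 4 classes (42.5 against 58 bp, 48.5 against 64.5 bp and 45.5 against 51.8 bp in the last 3). The difference itself was not tested. With the window grid shifted by 500 bp the median shift of members was 57 bp. The 5mC-carrying maxima were not measured on that grid, so whether the order holds there is not known.

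Copies of the same read were few in members. Of 13440 deposited H2A.B reads in them, 12632 were distinct (94.0%, 93.6% to 94.4%). This was not particular to members, since the share was 94.78% (94.55% to 95.01%) in the comparison windows under 2 times their local mean. It was 86.6% over all autosomal reads of the library, which include the maxima with IgG reads. In the 5mC-carrying maxima it was 87.8% (87.5% to 88.0%). The gap between members and 5mC-carrying maxima was wider in taller maxima. At 10 to 12 reads the distinct share was 94.7% in members and 94.6% in 5mC-carrying maxima, and at 13 to 15 reads 94.9% (94.1% to 95.7%) and 93.2% (92.6% to 93.8%). At 16 to 19 reads it was 94.3% (93.2% to 95.3%) and 89.6% (88.9% to 90.3%), and at 20 or more it was 91.2% (90.0% to 92.2%) and 83.0% (82.6% to 83.5%). In 493 members every deposited H2A.B read was distinct. Of the H2A.B reads in the 3874 maxima that held IgG reads, 17.2% were distinct. Copies there lay in tall windows as well, with 13.7% distinct at 20 or more reads and 94.2% at 10 to 12.

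Outside the window, H2A.B fell back to the local level almost at once. It stood at 1.36 times the 100 kb mean (1.33 to 1.39) in the 2 windows next to a member and at 1.10 (1.09 to 1.11) over the 5 windows on either side. Tall members had broader feet: the next windows stood at 1.20 (1.15 to 1.24) for members with 10 to 12 reads and at 1.71 (1.62 to 1.80) for those with 20 or more. Around 5mC-carrying maxima the next windows stood at 1.74 (1.72 to 1.76). The gap was widest among tall maxima, with 2.29 (2.25 to 2.33) for 5mC-carrying maxima of 20 or more reads. At 10 to 12 reads it was small, with 1.30 (1.27 to 1.34), and at 13 to 15 and at 16 to 19 reads the intervals overlapped (1.40 against 1.43, and 1.43 in both).

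**Figure D2:**
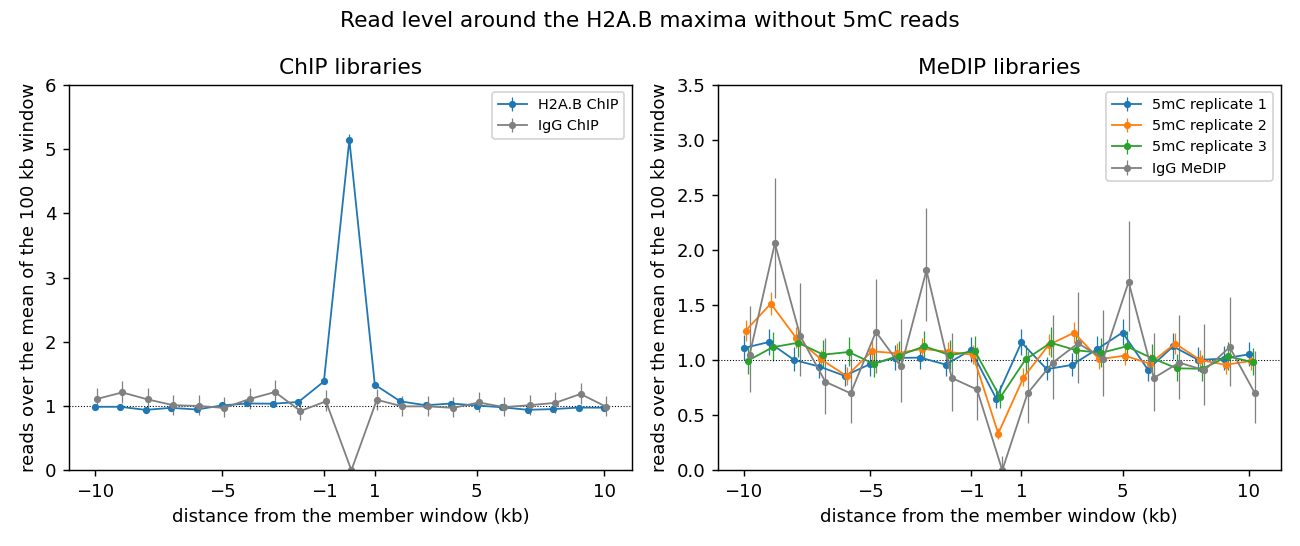
Reads in 1 kb windows up to 10 kb from the 918 members, over the mean of their 100 kb windows (dotted line at 1), with 95% Poisson intervals. H2A.B stands at 5.14 in the member and at 1.38 and 1.33 in the windows to its left and right. The 5mC libraries lie between 0.842 and 1.16 in those windows; the values at distance 0 are set by the rule.

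5mC was not low around the members. In the flanks of 5 windows on either side, which the rule did not use, the 5mC libraries stood at 1.04, 1.06 and 1.07 times their 100 kb means, a mean of 1.06 ± 0.0139 (SD, n = 3). IgG ChIP stood at 1.04 (0.992 to 1.09) and IgG MeDIP at 1.11 (0.995 to 1.24) in the same windows. All 3 5mC values lay within the intervals of both IgG libraries. With other maxima left out of the flanks the 5mC level was 0.9995 ± 0.0309, and with the window grid shifted by 500 bp it was 1.005 ± 0.0266, so a level above the surroundings did not hold. In the windows directly next to a member 5mC stood at 1.04 ± 0.0905 (SD, n = 3), with 1.13, 0.946 and 1.04 in replicates 1, 2 and 3, while IgG MeDIP stood at 0.716 (0.514 to 0.971, 41 reads). No 5mC read fell in either next window of 177 members, and none in all 10 flank windows of only 2 members.

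The flanks of 5mC-carrying maxima held more 5mC, at 1.34, 1.18 and 1.15 times the mean in replicates 1, 2 and 3. At 10 to 12 H2A.B reads they stood at 1.25 ± 0.184 (SD, n = 3) against 1.02 ± 0.0328 for members, higher in each of the 3 libraries. With 20 or more reads the values were 1.22 ± 0.111 and 1.14 ± 0.107, closer than the spread between libraries. At 10 to 12 reads IgG MeDIP was also higher there, at 1.39 (1.25 to 1.54) against 1.01 (0.844 to 1.20), so the gap was not seen in 5mC libraries alone. Its part in the 5mC values was not tested.

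The depth of the MeDIP libraries limits what 0 or 1 reads can show. The 100 kb windows around members averaged 1.09 5mC reads per kb (median of the 3 libraries summed; 0.32, 0.50 and 0.26 in replicates 1, 2 and 3), against 1.42 for all windows with an H2A.B read. Taken as a round limit, a count of 0 allows up to 3 reads, and only 8 members lay where the local mean was above 3 reads per kb. Of these 8, only 2 held no 5mC read: chr6:83351001-83352000, with 35 H2A.B reads and a local 5mC mean of 3.20, and chr12:4802001-4803000, with 29 and 3.01. The exact Poisson interval for a count of 0 is wider than this limit of 3 reads and reaches above both of these local means. Both windows also belong to a set chosen for low 5mC. For a single member with 0 reads, these 2 included, a 5mC level below its surroundings was thus not detectable at this depth. The one of the 8 with the most 5mC around it, chr1:167698001-167699000, had 16 H2A.B reads, 1 read of 5mC replicate 2 and a local 5mC mean of 5.6 reads per kb. For IgG the limit was lower still, with a median local mean of 0.18 reads per kb in IgG ChIP and 0.02 in IgG MeDIP.

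Holding so few 5mC reads was less common among H2A.B maxima than among other windows with H2A.B reads. Of the 3407 maxima without IgG reads, 26.9% were members, while 66.0% of the 1661144 windows that held H2A.B reads, were no maximum and had no IgG read held 0 or 1 5mC reads. The latter windows could hold as few as 1 H2A.B read, so the groups were not matched in H2A.B count. The gap between them was present at every local level of 5mC. Where the 100 kb mean was under 1 read per kb, 43.9% of maxima (40.4% to 47.3%) and 82.1% of other windows held 0 or 1 5mC reads. Between 1 and 1.5 the shares were 28.6% (26.2% to 31.1%) and 72.3%, and at 3 or more 5.41% (2.36% to 10.4%) and 36.4%. Members thus made up a minority of the H2A.B maxima in every class.

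**Figure D3:**
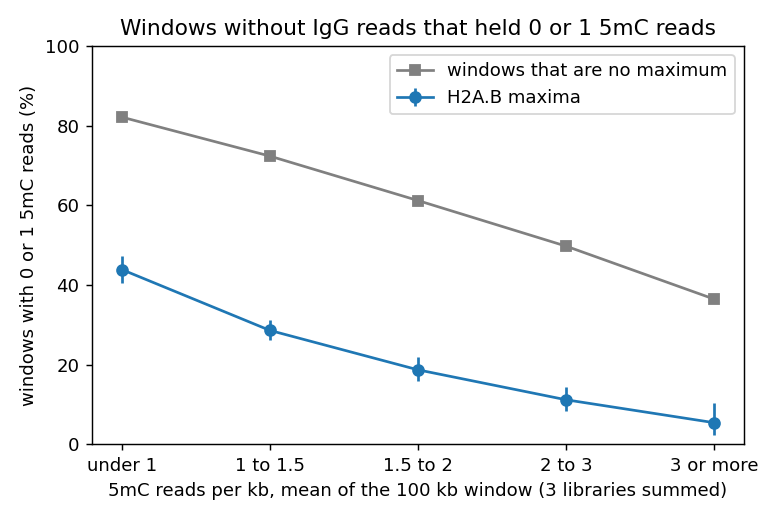
Share of windows without IgG reads that held 0 or 1 5mC reads, by the mean 5mC level of the 100 kb window, for H2A.B maxima (circles, with 95% binomial intervals) and for windows that are no maximum (squares). The maxima lie below the other windows in all 5 classes, from 43.9% against 82.1% down to 5.41% against 36.4%.

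Whether a low 5mC count recurred between libraries was measured by leaving each 5mC library out of the choice. Windows were chosen with the other 2 libraries summed 0 or 1, and the reads of the left-out library were counted there. Such windows include the members, but also maxima that fail the rule through the left-out library, so their level is not that of the members. Replicate 1 held 2778 reads in 1723 such windows, 3.85 times its local mean (3.71 to 4.00). Replicate 2 held 1413 reads in 1389 windows, 1.69 times (1.61 to 1.78), and replicate 3 held 628 reads in 1196 windows, 1.87 times (1.73 to 2.02). All 3 libraries thus stood above their local mean where the other libraries had almost no reads, at 2.47 ± 1.20 (SD, n = 3). Without replicate 2 the mean was 3.91 ± 2.62 (SD, n = 2). In windows that were no maximum, chosen in the same way, the left-out library stood at 0.776 ± 0.0821 (SD, n = 3), and in those with 10 or more H2A.B reads under 2 times the mean at 0.636 ± 0.162.

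Replicate 1, the highest, was read in the same lane and at the same read length as H2A.B. The part of lane and read length in its value was not tested. Replicates 2 and 3 were read in other lanes at 50 bp. Where 2 libraries summed 0 or 1, the third held fewer reads than where they summed to 2 or more. H2A.B height was not matched between these groups. Where the other 2 summed to 2 or more, the left-out library stood at 7.44, 4.32 and 2.43 in replicates 1, 2 and 3. The difference was -2.26 ± 1.55 (SD, n = 3), with the same sign in 3 of 3 libraries. It is the level of maxima whose other 2 libraries summed 0 or 1, minus that of maxima at 2 or more. An exact sign-flip permutation test over the 3 libraries (two-sided) gave p = 0.25, the smallest value that 3 libraries allow, so the design cannot reach 0.05. Where the other 2 libraries summed to 2 or 3, replicates 1 and 2 stood at 6.18 and 2.88, but replicate 3 at 1.88, not apart from its 1.87 at a sum of 0 or 1. With 5mC replicate 2 left out altogether, the difference was -0.516.

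**Figure D4:**
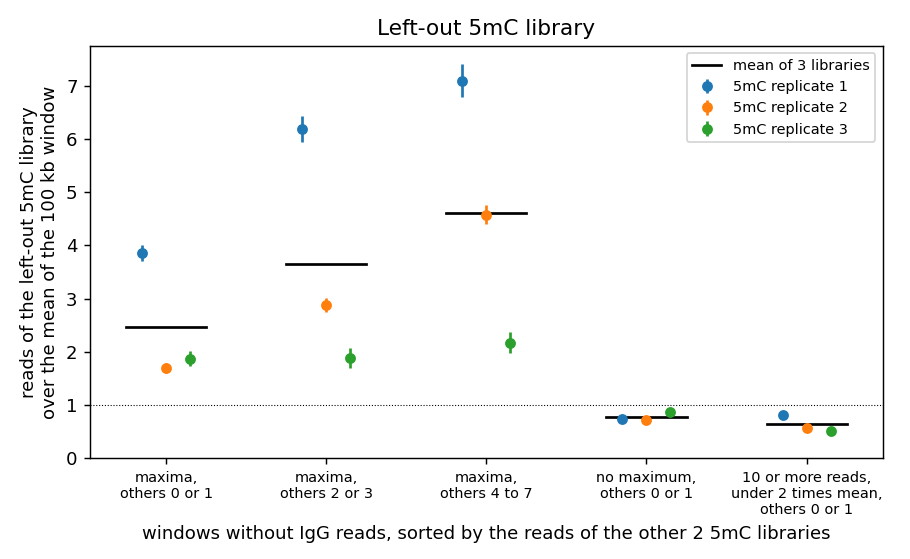
Reads of a left-out 5mC library over the mean of the 100 kb window (dotted line at 1), in windows without IgG reads sorted by the other 2 5mC libraries; points are libraries with 95% Poisson intervals and bars the mean of 3. The maxima whose other libraries summed 0 or 1 stand at 3.85, 1.69 and 1.87, and the windows that are no maximum at 0.740, 0.719 and 0.870.

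The IgG libraries were examined in the same way, each left out of the rule in turn. Without the limit on IgG ChIP the rule gave 1162 windows. They held 299 IgG ChIP reads, 1.39 times the local mean (1.24 to 1.56), while H2A.B, which chose them, stood at 5.14. IgG ChIP had no read in 918 of the 1162 (79.0%) and at most 6 in any of them. Windows that were no maximum stood at 0.896 (0.893 to 0.900), so IgG ChIP was higher at the H2A.B maxima as well. Without the limit on IgG MeDIP the rule gave 946 windows, with 30 IgG MeDIP reads at 1.00 times the local mean (0.677 to 1.43), against 0.502 (0.496 to 0.508) where there was no maximum.

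The same step in maxima that carried 5mC gave far higher levels of both controls. IgG ChIP stood at 3.29 (3.17 to 3.41) in 3985 windows and IgG MeDIP at 7.81 (7.38 to 8.27) in 3210. Low 5mC and low IgG reads thus went together among H2A.B maxima. Only the left-out IgG library took no part in the choice, since the 5mC reads set the groups. Single windows of the 5mC-carrying sets held up to 80 IgG ChIP and 9 IgG MeDIP reads. H2A.B was also higher in them, at 6.35 and 5.72 against 5.14 and 5.15, and height was not matched.

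Among the members, those with no 5mC read and those with 1 differed little. The 363 with none had a median of 11 H2A.B reads and a ratio of 4.91, and the 555 with 1 read a median of 12 and a ratio of 4.74. Their strand shifts were 46 bp (25 to 72) and 41.5 bp (32.5 to 48), with overlapping intervals. Their 5mC flank levels were 1.07 ± 0.102 and 1.06 ± 0.0439 (SD, n = 3), a difference smaller than the spread between libraries. The lone read came from replicate 1 in 217 members, from replicate 2 in 173 and from replicate 3 in 165, although replicate 2 was the deepest. The 93 members with 20 or more H2A.B reads lay in regions richer in both signals, with a local mean of 3.92 H2A.B and 1.78 5mC reads per kb, against 2.27 and 0.98 for those with 10 to 12. The ratio of at least 4 itself asks for more reads where the local mean is higher.

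The 42 members with such a taller or equal neighbour, called shoulders here, were set beside the rest. Next to them H2A.B stood at 4.48 (4.21 to 4.76) and the 5mC libraries at 2.62, 1.05 and 1.55 in replicates 1, 2 and 3, a mean of 1.74 ± 0.801 (SD, n = 3). For the other 876 members the next windows stood at 1.20 for H2A.B (1.17 to 1.23) and 1.01 ± 0.0595 for 5mC. The shoulders were chosen on the next window's H2A.B reads, and its 5mC and IgG reads took no part. Left-out 5mC libraries stood above their local mean at H2A.B maxima, so the 5mC values are not shown to be independent of that choice. The 5mC values were higher next to the shoulders in each of the 3 libraries (1.06, 0.941 and 1.02 next to the other members). The gap between the means was smaller than the SD of the shoulders. IgG ChIP stood at 0.990 (0.541 to 1.66) next to the shoulders and 1.09 (0.978 to 1.21) next to the others. IgG MeDIP stood at 1.25 (0.258 to 3.65, 3 reads) and 0.693 (0.490 to 0.951).

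Members lay mostly alone. The median distance to the nearest other member was 670 kb, and 49 of 918 (5.34%) had another within 10 kb, against 9.48% of the 5mC-carrying maxima and 14.9% of the maxima with IgG reads, which are more numerous groups. With maxima of any kind counted, 14.3% of members, 17.8% of 5mC-carrying maxima and 20.0% of maxima with IgG reads had one within 10 kb. Of the 870 windows of 100 kb that held a member, 825 held 1, 43 held 2, 1 held 3 and 1 held 4.

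The window with 4 members was chr12:116300001-116400000, with 259 H2A.B, 15 IgG ChIP and 0 IgG MeDIP reads and 31, 31 and 25 reads of 5mC replicates 1, 2 and 3. Within it, 3 members clustered at chr12:116303001-116305000 and chr12:116306001-116307000 with 15, 15 and 11 H2A.B reads and a 5mC sum of 0, 1 and 1. The fourth, chr12:116384001-116385000, had 11 H2A.B reads and no 5mC read. The window with 3 members was chr13:68600001-68700000, with 197 H2A.B reads and 3 maxima, all of them members.

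Adjacent members were rare, with 12 pairs and no longer run. The pair with the most reads was chr19:54562001-54564000. Its left window held 36 H2A.B reads and 1 read of 5mC replicate 3, its right window held 22 and no 5mC read, and no IgG read fell in either. No IgG read of either kind fell in the 5 windows on either side of each. The windows outside the pair held 2 H2A.B reads each, so its edges were sharp.

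Chromosomes differed in how many members they held. The density ran from 1.27 per 10000 windows with an H2A.B read on chromosome 11 (0.696 to 2.13, 14 members) and 2.33 on chromosome 8 (1.52 to 3.42, 26 members) to 7.20 on chromosome 3 (5.83 to 8.78, 97 members). Chromosome 19 followed with 6.03 (4.12 to 8.51) and held the most members with 20 or more H2A.B reads, 10 of 93. Neighbours in this order mostly had overlapping intervals, while those of chromosomes 3 and 11 were far apart.

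**Figure D5:**
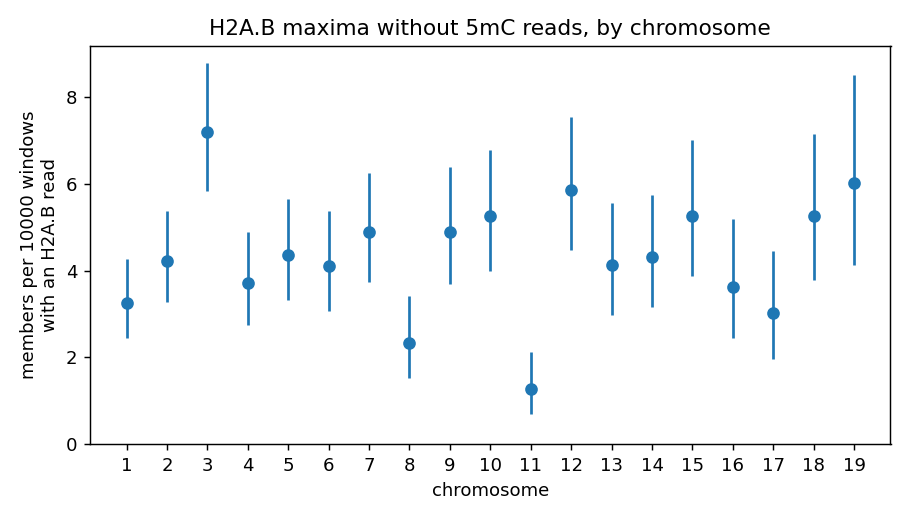
Members per 10000 windows with an H2A.B read on each autosome, with 95% Poisson intervals. Chromosome 3 is highest at 7.20 and chromosomes 11 and 8 lowest at 1.27 and 2.33.

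The 2 chromosomes with the lowest density also had the highest local 5mC level, with a median 100 kb mean of 2.02 reads per kb on chromosome 11 and 1.72 on chromosome 8, and chromosome 3 had the lowest, 1.18. Chromosome 19, second in density, went the other way with 1.51, and chromosome 11 also had the highest local H2A.B mean, 3.88 reads per kb. The limit on 5mC reads is part of the rule, so density and 5mC level are not independent measures. Across the 19 autosomes, which share all 6 libraries, the density and the 5mC level had a Spearman's rho of -0.445 and a Pearson's r of -0.724. Without chromosomes 8 and 11 these were -0.225 and -0.403, so the relation rested largely on those chromosomes. As a share of the maxima without IgG reads, members made up 14.6% on chromosome 11, 18.1% on chromosome 8, 34.2% on chromosome 3 and 36.0% on chromosome 19. This share and the 5mC level had a rho of -0.312 and an r of -0.623, and -0.0380 and -0.159 without chromosomes 8 and 11.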

How the data were processed

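The deposited data were 6 lists of aligned reads, 1 per library (H2A.B ChIP, IgG ChIP, 3 of 5mC MeDIP, IgG MeDIP). The submitters' processing notes name Bowtie, FastQC and build mm9, without versions; how reads with several matches were handled is not given in the sources used here. Each deposited line carries the same score, so scores entered no result. Left out were 9 lines outside the tab format, none of them in a member, 2691 reads of 5mC replicate 2 with a blank strand, and the 201263 reads of that list whose names are also in the IgG MeDIP list. That list holds 4 sorted blocks, whose origin is not known, so its first block was also tried by itself.

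Reads sharing chromosome, strand and 5′ end were collapsed to 1 and counted in 1 kb windows of chromosomes 1 to 19 (Python 3.11.15, numpy 2.4.6, pandas 2.3.3, scipy 1.17.1). The level of a library is its reads in a set of windows over the reads expected from the mean per kb of their 100 kb windows. A maximum had at least 10 H2A.B reads and at least 4 times that mean. Flanks were 1 to 5 windows away on both sides. With 1 library per group no test was made except the exact sign-flip permutation test over the 3 5mC libraries. Named are the 10 members with the most H2A.B reads, the 5 with the highest ratio, the 100 kb windows with over 2 members (up to 5 were allowed, but 43 tied at 2) and the top run of adjacent members; the chr1:167698001-167699000, chr6:83351001-83352000 and chr12:4802001-4803000 members were chosen after their values were seen. The members, lists and measures were chosen with earlier results of these data known. The counting script was tested on simulated data. No member held 3 H2A.B reads within 2000 consecutive lines of the list.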

Additional observations from a re-analysis of the deposited data

How the results depend on the processing

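No paired analysis was possible because the groups share only replicate number 1; the test of the 5mC libraries compares 2 sets of windows within each library. The number of members was 363 with a 5mC sum of 0, 254 with at least 15 H2A.B reads and 178 with a ratio of at least 6. Leaving out each 5mC replicate in turn gave 1196 to 1723 members (1723 without replicate 1, 1389 without replicate 2), since fewer libraries were limited. The left-out 5mC level, 2.47, ranged from 2.375 to 3.91 without each replicate, with 3.91 ± 2.62 (SD, n = 2) without replicate 2. Its difference from maxima whose other libraries summed to 2 or more ranged from -3.59 to -0.516, negative under all 10 alternatives run. The 5mC flank level of 1.06 moved by more than the spread between libraries to 1.085 with 15 reads, 1.11 with a ratio of 6, 1.005 with the grid shifted by 500 bp, 1.046 in windows 6 to 10 away and 0.9995 with maxima in the flanks left out; without each replicate it was 1.059 to 1.07. The H2A.B flank level of 1.10 was 1.08 with all reads, 1.07 with a 5mC sum of 0, 1.17 with 15 reads, 1.14 with a ratio of 6, 0.966 in windows 6 to 10 away, 1.02 with maxima left out and 1.105 to 1.16 without each replicate. The strand shift was 57 bp with the shifted grid. The distinct share was 92.9% with 15 reads, 92.1% with a ratio of 6 and 92.5% to 93.8% without each replicate. Members with a neighbour within 10 kb were 1.65% with a 5mC sum of 0, 3.94% with 15 reads, 3.185% with the shifted grid and 5.40% to 7.66% without each replicate. The cause of these shifts was not tested. Leaving out collapsed repeats, an alternative chosen after seeing the data, left all 918 members. It drops 100 kb windows in which any library exceeded 10 times its median. The local H2A.B mean of members reached only 8.2 reads per kb, against a median of 3.04 over windows with an H2A.B read. Little could thus be dropped, and repeats confined to 1 kb could pass this step. H2A.B, IgG ChIP and IgG MeDIP have no replicate, and at this depth a count of 0 in a 1 kb window allows 3 reads, or more by the exact Poisson interval.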
